A study of Mus musculus with 12 samples.

Results

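The genes described here encode the proteins of the mitochondrial ribosome. They were chosen by name alone, as the rows of the deposited expression table whose symbol is Mrpl or Mrps followed by a digit, which gave 75 of 11762 genes, 46 named Mrpl and 29 named Mrps. Polyadenylated RNA was sequenced from J774A.1 cells, an established macrophage-like line that came from a BALB/c mouse. The 12 libraries fall into 4 groups with 3 biological replicates in each. LPS+MP cells received lipopolysaccharide, the outer membrane component of Gram-negative bacteria that Toll-like receptor 4 recognises, together with microparticles. LPS cells received lipopolysaccharide alone, MP cells microparticles alone, and control cells were mock-treated (untreated in their sample labels). The material and dose of the microparticles and the exposure times were not stated in the labels used here, and every group is of this 1 cell line, with no primary macrophages.

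Mitochondria make the proteins encoded by their own DNA on a ribosome that differs from the cytosolic one. Its RNAs come from mitochondrial DNA, while every protein subunit is encoded in the nucleus, made in the cytosol and imported. Many subunits descend from those of bacterial ribosomes and others arose in mitochondria, and the ribosome makes only core subunits of the respiratory chain and ATP synthase. In macrophages, lipopolysaccharide is known to shift energy metabolism from respiration towards glycolysis.

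By subunit, 26 of the genes encode small-subunit proteins, of which 16 have bacterial homologues and 10 are specific to mitochondria. The large subunit takes 48, of which 30 have bacterial homologues and 18 are mitochondria-specific. Symbols and places differ in a few cases: Mrps18a and Mrps30 carry small-subunit names but their proteins sit in the large subunit. The protein of Mrps36 is now placed in the oxoglutarate dehydrogenase complex and not in the ribosome. A mitoribosomal protein gene can also be listed under another name, as are Ict1 (Mrpl58), Mrp63 (Mrpl57) and Dap3, and such genes were kept apart.

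The promoters of the members with the 3 largest rises and the 3 largest falls in LPS+MP against control cells are shown to set the sequences beside the responses described below. Each runs from 250 bases before to 50 bases after the RefSeq transcript start (GRCm38.p6), 5′ to 3′ on the gene's strand. Capitals mark matches, on either strand, to 6 motifs searched by their letters: NRF1 (its GC-rich consensus with 1 free base, seen in capitals in Mrpl45), the ETS site that GABP binds (CCGGAAG), the YY1 site (AAGATGGC), the E-box that MYC binds (CACGTG), the CCAAT box spelled by its name, and the GC box that SP1 binds (GGGCGG).
The 3 with the largest rises were those of Mrpl52 (chr14:54426659-54426958, plus strand), Mrpl45 (chr11:97315466-97315765, plus strand) and Mrps10 (chr17:47368947-47369246, plus strand).
Mrpl52: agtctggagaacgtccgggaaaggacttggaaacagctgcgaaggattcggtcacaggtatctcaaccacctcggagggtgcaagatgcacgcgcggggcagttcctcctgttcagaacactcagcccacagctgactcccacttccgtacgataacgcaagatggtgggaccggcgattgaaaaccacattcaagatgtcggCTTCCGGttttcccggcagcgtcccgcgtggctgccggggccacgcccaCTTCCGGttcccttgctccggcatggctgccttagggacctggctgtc
Mrpl45: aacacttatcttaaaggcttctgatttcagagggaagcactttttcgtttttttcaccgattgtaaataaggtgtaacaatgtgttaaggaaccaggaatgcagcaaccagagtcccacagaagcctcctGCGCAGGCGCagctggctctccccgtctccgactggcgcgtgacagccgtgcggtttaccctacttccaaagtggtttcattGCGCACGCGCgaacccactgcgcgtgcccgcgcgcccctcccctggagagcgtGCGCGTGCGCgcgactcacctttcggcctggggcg
Mrps10: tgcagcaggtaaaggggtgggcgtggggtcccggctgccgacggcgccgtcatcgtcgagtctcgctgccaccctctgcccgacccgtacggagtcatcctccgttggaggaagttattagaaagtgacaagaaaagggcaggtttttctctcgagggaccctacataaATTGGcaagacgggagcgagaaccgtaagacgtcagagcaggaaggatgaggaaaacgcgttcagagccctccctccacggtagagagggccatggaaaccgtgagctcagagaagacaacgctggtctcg
The 3 with the largest falls were those of Mrpl18 (chr17:12916042-12916341, minus strand), Mrpl42 (chr10:95501900-95502199, minus strand) and Mrps26 (chr2:130563507-130563806, plus strand).
Mrpl18: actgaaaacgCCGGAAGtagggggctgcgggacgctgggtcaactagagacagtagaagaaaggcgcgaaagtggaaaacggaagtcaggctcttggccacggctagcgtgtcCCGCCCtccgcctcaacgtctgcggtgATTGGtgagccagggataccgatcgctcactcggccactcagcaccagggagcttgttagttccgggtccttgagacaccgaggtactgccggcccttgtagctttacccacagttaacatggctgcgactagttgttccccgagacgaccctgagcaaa
Mrpl42: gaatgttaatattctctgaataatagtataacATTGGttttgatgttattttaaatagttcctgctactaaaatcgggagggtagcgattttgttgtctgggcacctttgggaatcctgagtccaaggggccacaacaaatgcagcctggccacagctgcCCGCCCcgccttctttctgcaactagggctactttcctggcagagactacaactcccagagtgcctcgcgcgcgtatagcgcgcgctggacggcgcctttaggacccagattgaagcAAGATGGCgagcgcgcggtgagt
Mrps26: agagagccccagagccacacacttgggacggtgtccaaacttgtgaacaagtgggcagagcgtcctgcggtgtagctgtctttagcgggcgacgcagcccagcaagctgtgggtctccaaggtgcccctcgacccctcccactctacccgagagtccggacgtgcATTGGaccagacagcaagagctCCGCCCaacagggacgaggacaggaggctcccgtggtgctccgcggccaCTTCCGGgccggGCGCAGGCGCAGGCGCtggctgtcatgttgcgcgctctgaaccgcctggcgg
The promoter of Mrpl52 held 2 ETS matches, and that of Mrpl45 held 3 NRF1 matches. Mrps26, which moved the other way, held 2 overlapping NRF1 matches and 1 ETS match, so neither motif was on 1 side alone. The start in the RefSeq table lay 310 bases from the start in the deposited table for Mrps10, 254 for Mrpl18 and at most 22 for the other 4. For Mrps10 and Mrpl18 the deposited start lay upstream of the whole printed stretch. By that start their printed stretches lie inside the gene. A match is a run of letters and not a measured binding site.

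Promoter entries existed for 66 of the 75 members. For members the entry nearest the deposited start was used, and for the background shares the first entry listed for a gene. The 2 rules differ, which can affect the shares below. Of the 66, 64 started within 1000 bp of the deposited start. Mrpl33 (17016 bp away, with an ETS match) and Mrps24 (7979 bp, with a YY1 match) did not and are counted. ETS matches stood in 33.3% of them (22), against 9.1% of 27025 promoters of the RefSeq table and 19.3% of the 8714 promoters of genes in the expression table. NRF1 matches stood in 18.2% (12), against 4.8% and 11.2%. YY1 matches also stood in 18.2% (12), against 2.9% and 5.1%. The E-box (7.6%, 5 members) and CCAAT (39.4%, 26 members) were about as frequent elsewhere, at 7.2% and 37.9% of all and 10.6% and 39.5% of those in the expression table. GC boxes stood in 50% of the member promoters (33), between the 35.9% of all promoters and the 65.1% of those in the expression table. With LPS, 9 of 22 members with an ETS match and 19 of 44 without one fell, and 5 of 12 with and 23 of 54 without an NRF1 match did. For YY1 the counts were 7 of 12 and 21 of 54, for the E-box 3 of 5 and 25 of 61, for CCAAT 13 of 26 and 15 of 40, and for the GC box 17 of 33 and 11 of 33. Of all genes 35.6% fell with LPS. No motif group was tested for a difference. The 9 members with no entry were Mrpl4, Mrpl13, Mrpl15, Mrpl19, Mrpl38, Mrpl54, Mrps28, Mrps34 and Mrps35.

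The deposited values were read as CPM, counts scaled to a common library total, and each library summed to between 998867 and 999273. Read depth is not known, so no counting error can be attached to single values. Levels are given as CPM, and changes as the log2 fold change on the log2(CPM + 1) scale ± its SE from limma, with p-values adjusted over the 11745 genes tested. All 75 members were among these. Rose and fell are used for an adjusted p below 0.05, and changes of over 2-fold are counted separately. LPS replicate 2 stood apart: 15 members (20% of them, against 21.5% of all genes) lay more than 0.5 (log2) away from what the other LPS libraries averaged, and 3 members did so in each of LPS replicates 1 and 3. Of 8 macrophage markers 7 were in the table, with Adgre1 not listed, and their summed levels were 4657 to 4845 CPM in LPS+MP, 5913 to 7026 in LPS, 5416 to 5772 in MP and 5309 to 5943 in control libraries. Of 5 fibroblast markers the table lists Pdgfra, at 6.90 to 7.97, 7.67 to 10.8, 1.99 to 2.35 and 1.00 to 1.64 CPM in the same order. The endothelial markers Pecam1 and Cdh5 (2 of 3) summed to 1.81 to 2.29, 5.17 to 6.85, 1.29 to 2.02 and 2.35 to 3.06 CPM, and no marker of epithelial, T, B, neutrophil or erythroid cells is listed. Their part in the results below was not tested.

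Together the members took a small share of the RNA, which was lowest with LPS. Their summed level was 2703 ± 37.7 CPM in LPS+MP, 2450.2 ± 119 in LPS, 3141 ± 185 in MP and 2841 ± 94.7 in control cells (SD, n = 3 each). By library the sums were 2693, 2745 and 2672 CPM in LPS+MP, 2466, 2325 and 2560 in LPS, 2931, 3215 and 3277 in MP, and 2942, 2754 and 2826 in control. The LPS libraries lay below every other library and those of LPS+MP below every MP and control library, while MP replicate 1 lay within the control range. CPM values are shares of a common total and give no amount per cell. In these bulk samples less RNA of a gene per cell, more RNA of other genes and a lower share of cells that express it cannot be told apart.

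**Figure D1:**
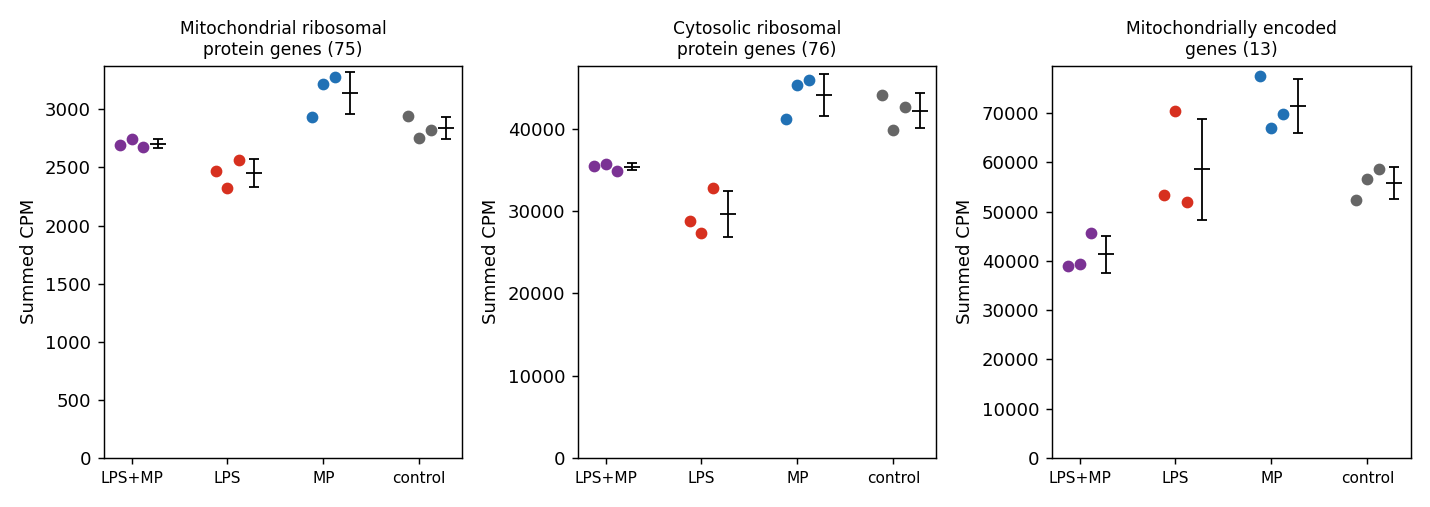
Summed CPM (y axis, from 0) of the mitochondrial ribosomal protein genes, the cytosolic ribosomal protein genes and the mitochondrially encoded genes in LPS+MP, LPS, MP and control libraries. Points are libraries and bars are the mean ± SD (n = 3). The sum of the mitochondrial ribosomal protein genes was lowest in LPS, at 2450.2 CPM, and highest in MP, at 3141 CPM.

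Per kb of transcript, the members lay far below the genes of the cytosolic ribosome. The median member stood at 23.4 CPM per kb over all libraries (73 members with a length in GENCODE M21, 4.09 to 140), against 603 for 75 cytosolic ribosomal protein genes and 10.99 for 11655 genes of the table. Mrpl52 was the highest in LPS+MP, LPS and MP and did not stand apart in control, where Mrps21 averaged 86.9 ± 6.21 CPM per kb. It was at 187 ± 14.1 CPM per kb in LPS+MP, 170 ± 34.6 in LPS, 122 ± 21.4 in MP and 81.6 ± 10.7 in control. Over all libraries Mrps10, Mrps18b, Mrpl23 and Mrps21 followed, at 72.8, 64.4, 61.9 and 60.9 CPM per kb, but the order differed between groups. Mrps10 came next after Mrpl52 in LPS+MP, LPS and MP, at 88.2, 65.1 and 89.8 CPM per kb. In control it was at 48.2, below Mrps21, Mrpl52, Mrpl18, Mrpl42, Mrps18b, Mrpl28, Mrpl23, Mrps15, Mrps34, Mrpl34, Mrpl2, Mrpl13 and Mrps18a. The SD of Mrps21 within MP was 19.7 CPM per kb. The lowest over all libraries were Mrpl48, Mrps35, Mrpl1, Mrps30 and Mrpl47, at 4.09, 6.39, 6.57, 6.77 and 7.34 CPM per kb. Each length is that of the 1 transcript listed for a gene, here 4285, 4162, 3431, 3319 and 3364 bp, and the order depends on it. By CPM alone Mrps6 was lowest in every group, at 5.08 in LPS+MP, 6.81 in LPS, 6.68 in MP and 7.51 in control.

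Single members responded in opposite directions, and few responses were large. Over the 5 pairwise comparisons, 63 of 75 members passed the test in at least 1, as did 85% of all genes, and 12 passed in none. Changes of over 2-fold were reached by 0 members with MP, 1 with LPS and 3 with LPS+MP, each against control, while 3.67%, 16.3% and 20.8% of all genes passed that rule. In LPS+MP against LPS, 0 members passed it (4.52% of all genes), and in LPS+MP against MP 1 did (13.6% of all genes), which was 0 without MP replicate 3. In the interaction of both agents 0 members passed it (4.7% of all genes). The 3 comparisons against control share the control libraries, so their values are not independent of one another.

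**Figure D2:**
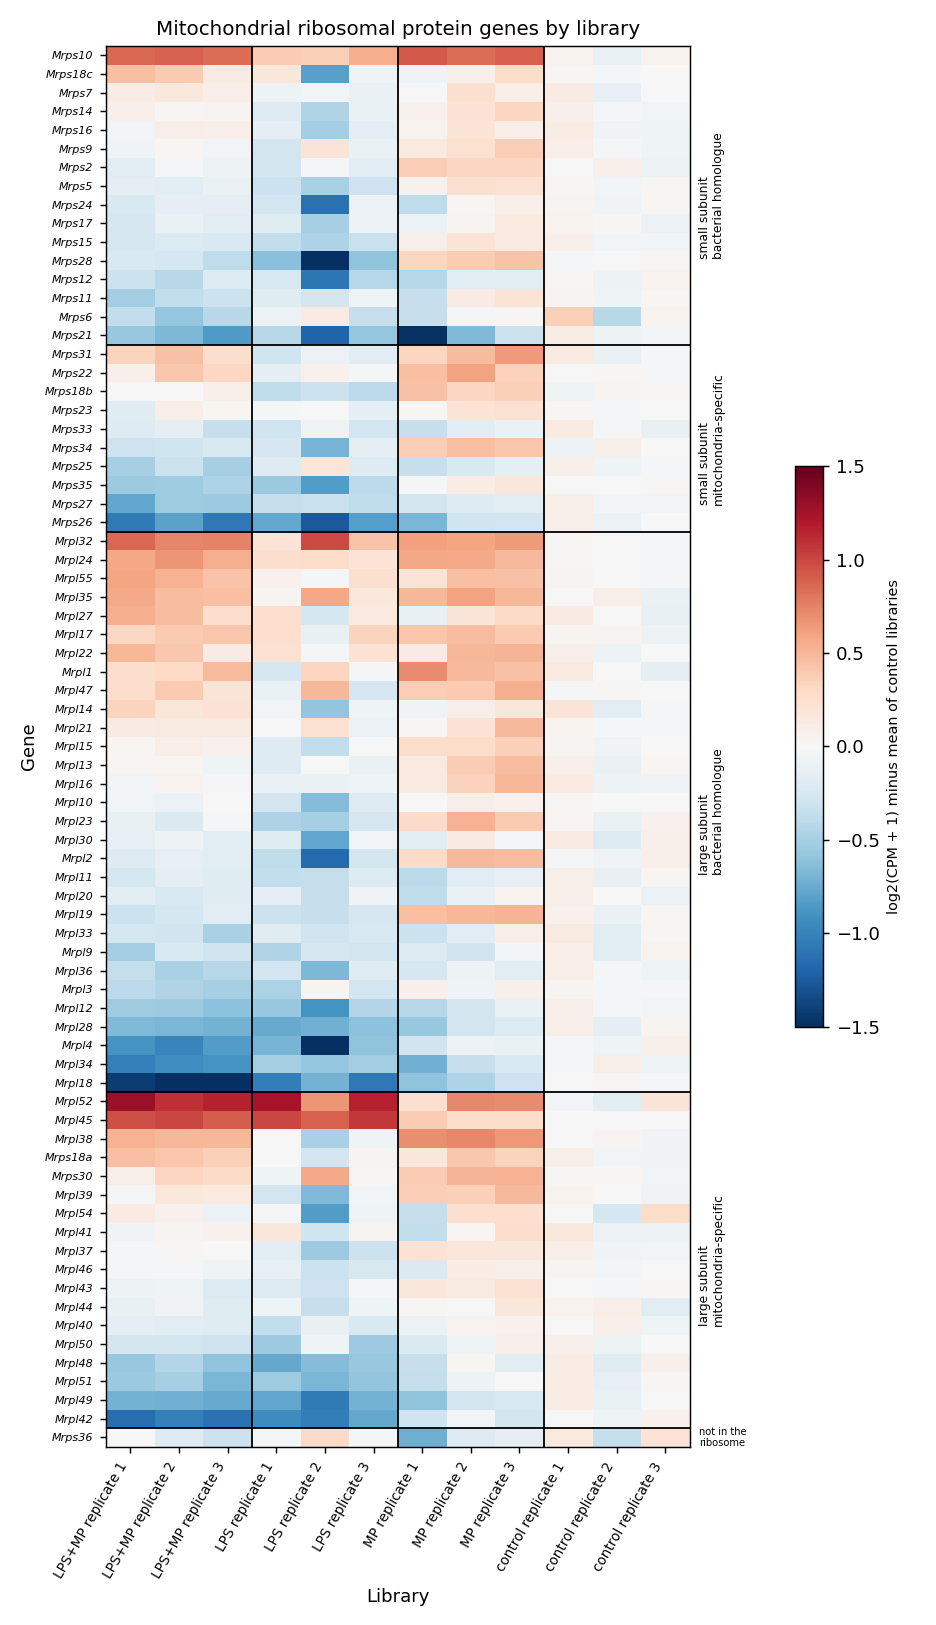
Each row is 1 of the 75 members, grouped by subunit and by origin, and each column 1 library, from LPS+MP on the left through LPS and MP to control. Colour is log2(CPM + 1) minus the mean of the control libraries (red higher, blue lower, from -1.5 to 1.5). Mrpl52, Mrpl45 and Mrps10 are red in the LPS+MP columns, where Mrpl18, Mrpl42 and Mrps26 are blue.

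With microparticles alone, more members rose than fell. In MP against control, 25 of 75 rose (20.6% of all genes rose) and 6 fell (18.3% of all genes fell), and 44 did not pass. The median log2 fold change was 0.12 over the members, and 0.02 over all genes tested. Without MP replicate 3 it was 0.05 over the members, and leaving out any other of these libraries gave 0.09 to 0.17. Rises were small, the largest being 0.89.

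Mrps10, a protein of the head of the small subunit with a bacterial homologue (chr17:47368887-47381417 in the table's coordinates), had the largest rise. Its level was 89.9, 90.9 and 88.6 CPM in the LPS+MP libraries, 64.3, 62.8 and 71.8 in the LPS libraries, 93.4, 88.5 and 92.4 in the MP libraries and 50.7, 45.7 and 50.8 in the control libraries. All MP and LPS+MP libraries lay above the LPS libraries, and these above control. The change was 0.89 ± 0.07 in MP against control (adjusted p = 3.13e-07).

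Mrpl38, a mitochondria-specific protein of the central protuberance on top of the large subunit (chr11:116131817-116138868), came next. It stood at 59.98, 58.7 and 58.9 CPM in the LPS+MP libraries, 41.05, 29.2 and 39.6 in the LPS libraries, 67.5, 68.7 and 65.6 in the MP libraries and 41.7, 42.7 and 39.8 in the control libraries. The MP libraries were highest, LPS+MP just below them, and the LPS and control libraries overlapped. Its change was 0.69 ± 0.10 in MP against control (adjusted p = 0.000102).

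Further members with large rises in MP were Mrpl32 (0.62 ± 0.14), whose protein is processed by the m-AAA protease, Mrpl52 (0.56 ± 0.15), Mrpl1 (0.55 ± 0.14), Mrpl24 (0.54 ± 0.07), Mrpl35 (0.53 ± 0.12) and Mrpl19 (0.49 ± 0.07, a protein near the interface of the subunits). The 6 members that fell were Mrps21 (-0.82 ± 0.23), Mrpl18 (-0.46 ± 0.10), Mrpl34 (-0.43 ± 0.11), Mrps26 (-0.43 ± 0.13), Mrpl49 (-0.37 ± 0.11) and Mrpl28 (-0.35 ± 0.10). Mrps21, the homologue of bacterial S21, was at 28.2, 26.2 and 23.1 CPM in the LPS+MP libraries, 31.6, 17.9 and 28.1 in the LPS libraries, 14.6, 26.4 and 33.6 in the MP libraries and 45.8, 40.1 and 41.3 in the control libraries. MP replicate 1 was the lowest library of all, the MP, LPS and LPS+MP libraries overlapped, and all lay below control. Without MP replicate 1 the fall of Mrps21 was -0.49 and did not pass (adjusted p = 0.0613), and 2 members fell in all. Without control replicate 1 there were 3, and 11 without LPS replicate 2, which only lowers the shared estimate of spread. Mrps26, Mrpl49 and Mrpl28 did not pass without MP replicate 1 (adjusted p = 0.112, 0.0973 and 0.0566) or without control replicate 1 (0.0749, 0.0794 and 0.0514), and without control replicate 3 Mrps26 (0.0569) and Mrpl49 (0.0501) did not. Mrpl34 was at -0.29 without MP replicate 1 and still passed. With array weights 38 members rose and 14 fell, but MP replicate 2 then weighed 7.523 and MP replicates 1 and 3 0.521 and 0.716. With only MP and control in the fit 10 fell.

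**Figure D3:**
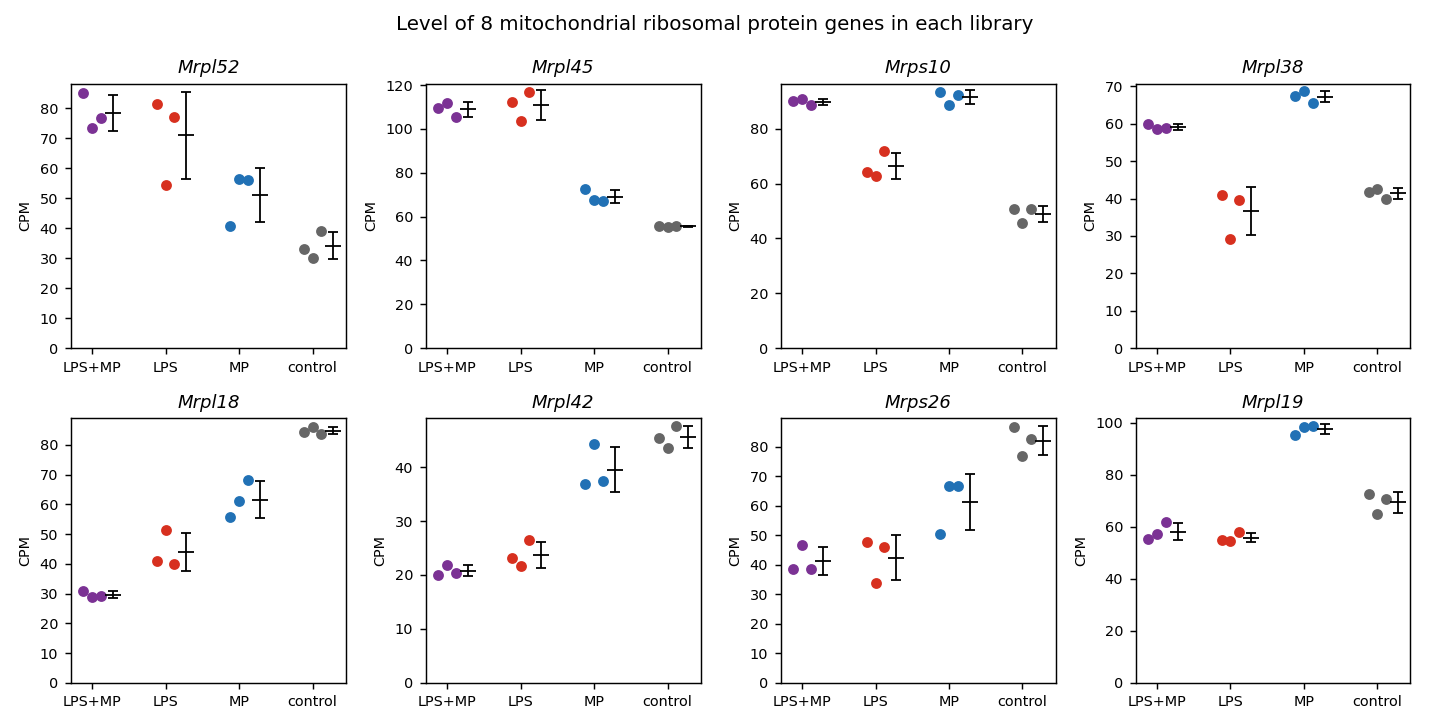
CPM (y axis, from 0) of 8 members in each LPS+MP, LPS, MP and control library, left to right; points are libraries and bars the mean ± SD (n = 3). Mrpl52 and Mrpl45 were highest in both groups with lipopolysaccharide, Mrps10 and Mrpl38 in both groups with microparticles, Mrpl18 was lowest in LPS+MP, at 29.7 CPM, and Mrpl19 was highest in MP.

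With lipopolysaccharide, falls prevailed. In LPS against control, 33 of 75 members fell (35.6% of all genes fell) and 5 rose (26.6% of all genes rose). The median was -0.24 over the members and -0.08 over all genes tested. The members that rose were 6.67% of the family and those that fell 44%. With quantile normalization 25 members fell and 6 rose, and with median-ratio scaling 27 fell and 7 rose. The members' median was then -0.14 and -0.16.

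The members that rose were Mrpl52, Mrpl45, Mrpl32, Mrps10 and Mrpl24. Mrpl52, a mitochondria-specific protein of the large subunit (chr14:54426909-54429750), was at 84.9, 73.5 and 76.6 CPM in the LPS+MP libraries, 81.4, 54.4 and 77.01 in the LPS libraries, 40.7, 56.3 and 55.9 in the MP libraries and 33.1, 30.2 and 39.01 in the control libraries. Every library with LPS lay above every control library, and LPS replicate 2 fell within the range of MP. Its rise was 1.02 ± 0.15 in LPS against control (adjusted p = 2.64e-05), the only one of over 2-fold. With LPS replicate 1, 2 or 3 left out, 3 members in all were past 2-fold.

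Mrpl45 encodes a mitochondria-specific protein at the exit of the peptide tunnel, which in yeast has a relative, Mba1, that holds the ribosome at the inner membrane. At chr11:97315716-97329920, it had 109.5, 112 and 105 CPM in the LPS+MP libraries, 112, 104 and 117 in the LPS libraries, 72.5, 67.4 and 67.3 in the MP libraries and 55.6, 55.4 and 55.9 in the control libraries. The LPS+MP and LPS libraries overlapped and lay above all MP libraries, which lay above control. Its rise was 0.98 ± 0.07 (adjusted p = 5.69e-09). The remaining rises were 0.54 ± 0.14 for Mrpl32 (0.31 without LPS replicate 2, which passed), 0.43 ± 0.07 for Mrps10 and 0.25 ± 0.07 for Mrpl24.

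The largest falls were those of Mrpl4 (-0.97 ± 0.19), Mrps26 (-0.95 ± 0.13), Mrpl18 (-0.94 ± 0.10), Mrps28 (-0.93 ± 0.19), Mrpl42 (-0.92 ± 0.10), Mrpl49 (-0.85 ± 0.11), Mrps21 (-0.73 ± 0.23) and Mrpl28 (-0.70 ± 0.10). Mrpl18, homologue of the bacterial protein that binds 5S rRNA (chr17:12911349-12916345), was at 30.9, 28.9 and 29.3 CPM in the LPS+MP libraries, 40.8, 51.5 and 39.9 in the LPS libraries, 55.6, 61.04 and 68.1 in the MP libraries and 84.5, 86.03 and 83.8 in the control libraries. The 4 groups did not overlap, with LPS+MP lowest, then LPS, MP and control. Its gene overlaps Tcp1, a cytosolic chaperonin gene on the opposite strand, and the strand setting of the counting is not given, so reads of the pair cannot be told apart. Tcp1 itself changed by -0.36 ± 0.08 in LPS against control and by -0.33 ± 0.08 in LPS+MP against control, where Mrpl18 changed by -0.94 and -1.48.

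Mrps26, a mitochondria-specific protein of the small subunit (chr2:130563742-130568695), stood at 38.7, 46.7 and 38.6 CPM in the LPS+MP libraries, 47.6, 33.7 and 45.96 in the LPS libraries, 50.5, 66.7 and 66.8 in the MP libraries and 86.8, 77.1 and 82.5 in the control libraries. Control libraries were highest, both groups with LPS lowest, and MP lay between them with 1 library near the LPS range. Mrpl4, with the homologue of bacterial L4 as its product (chr9:21002737-21008835), had 32.6 ± 11.4 CPM in LPS and 61.9 ± 3.25 in control, and LPS replicate 2 was at 19.5 CPM against 37.9 and 40.4 in the other LPS libraries. Its fall was -0.65 without that library, and still passed. That of Mrps28 was -0.62 without it and also passed.

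With both agents, the extremes of the family lay furthest apart among the 5 comparisons. In LPS+MP against control, 15 members rose (27.7% of all genes rose) and 23 fell (38.6% of all genes fell). The median was -0.11 over the members and -0.10 over all genes tested, but turned to 0.02 over the members with quantile normalization and to -0.01 with median-ratio scaling. Those scalings moved the median of all genes from -0.10 in this comparison and -0.14 in LPS+MP against MP to between -0.02 and 0.01, so small changes in both depend on the scale. With quantile normalization 21 members rose and 16 fell.

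Past 2-fold were Mrpl52, which was 2.27-fold higher (1.18 ± 0.15, adjusted p = 4.62e-06), Mrpl18, which was 2.80-fold lower (-1.48 ± 0.10, adjusted p = 2.25e-09), and Mrpl42, 2.14-fold lower (-1.10 ± 0.10, adjusted p = 8.55e-08). Mrpl42, a mitochondria-specific protein of the large subunit (chr10:95480806-95501927), was at 20.02, 21.9 and 20.4 CPM in the LPS+MP libraries, 23.1, 21.6 and 26.4 in the LPS libraries, 36.8, 44.3 and 37.4 in the MP libraries and 45.4, 43.6 and 47.6 in the control libraries. Libraries with LPS and libraries without it did not overlap, and the LPS+MP and LPS libraries did. Other large rises were those of Mrpl45 (0.96 ± 0.07), Mrps10 (0.86 ± 0.07), Mrpl32 (0.78 ± 0.14) and Mrpl24 (0.60 ± 0.07), and other large falls those of Mrps26 (-0.98 ± 0.13), Mrpl34 (-0.95 ± 0.11) and Mrpl4 (-0.90 ± 0.19). Mrpl34, the small homologue of bacterial L34 (chr8:71464926-71465752), had 17.1 ± 0.819 CPM in LPS+MP and 34.01 ± 1.88 in control.

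**Figure D4:**
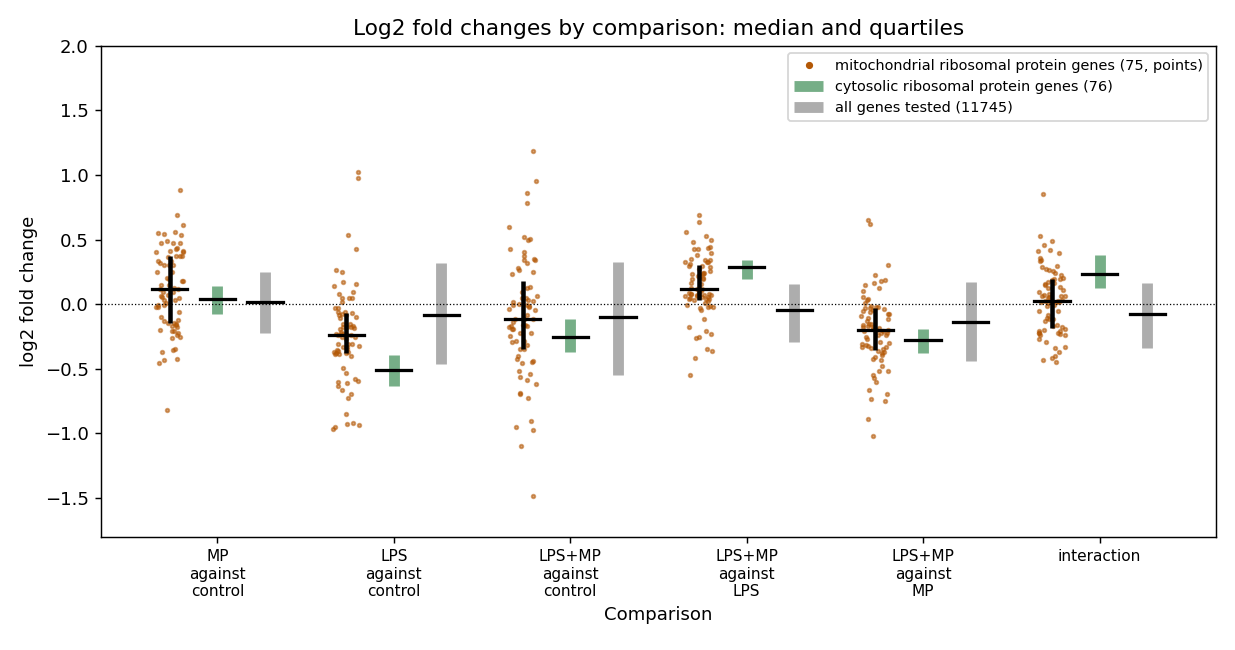
Log2 fold change (y axis) in 5 pairwise comparisons and the interaction. Points are the 75 members with their median and quartiles, green bars the quartiles of 76 cytosolic ribosomal protein genes and grey bars those of 11745 genes tested, with the median as a line. The members' median was -0.24 in LPS against control and 0.12 in LPS+MP against LPS; that of LPS+MP against control (-0.11) turned to 0.02 with quantile normalization.

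With microparticles added to lipopolysaccharide, more members rose than fell. In LPS+MP against LPS, 21 members rose (13% of all genes rose) and 4 fell (22.2% of all genes fell). The median was 0.12 over the members (0.18 without LPS replicate 3) and -0.05 over all genes tested. Mrpl38 had the largest rise (0.69 ± 0.10, adjusted p = 9.98e-05), and large rises were also those of Mrps28 (0.64 ± 0.19), Mrps31 (0.53 ± 0.11), Mrps18a (0.49 ± 0.10), Mrpl14 (0.48 ± 0.14), Mrpl2 (0.44 ± 0.16), Mrps10 (0.43 ± 0.07) and Mrpl39 (0.43 ± 0.12). The members that fell were Mrpl18 (-0.55 ± 0.10), Mrpl34 (-0.41 ± 0.11), Mrps25 (-0.37 ± 0.10) and Mrps27 (-0.26 ± 0.10).

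Mrps28, a small-subunit protein (chr3:8802146-8923918), was at 14.6, 14.3 and 13.03 CPM in the LPS+MP libraries, 10.9, 5.25 and 11.03 in the LPS libraries, 21.9, 22.8 and 23.5 in the MP libraries and 17.02, 17.4 and 17.5 in the control libraries. The LPS+MP libraries lay above the LPS libraries, and LPS replicate 2 was the lowest library of all. Its rise did not pass without LPS+MP replicate 1 (adjusted p = 0.0549), without LPS+MP replicate 2 (0.0505) or with only these groups in the fit (0.0838). Without LPS replicate 2 the changes of Mrps28, Mrpl14, Mrpl39 and Mrps25 were 0.32, 0.30, 0.26 and -0.24 and passed, while that of Mrpl2 was 0.16 and did not (adjusted p = 0.0975). Mrpl2 also did not pass without LPS+MP replicate 1 (0.0938), 2 (0.122) or 3 (0.103), with a pseudocount of 0.1, no variance trend, array weights or only these groups in the fit (0.0505 to 0.148). Mrps27 did not pass without any 1 of the LPS or LPS+MP libraries (adjusted p = 0.0557 to 0.207), Mrpl14 without LPS+MP replicate 1 (0.0551) and Mrpl39 without LPS+MP replicate 2 (0.0559). The count of members that rose was 10, 11 and 13 without LPS+MP replicates 1, 2 and 3, and 8 with only the compared groups in the fit.

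The comparison of MP with control and that of LPS+MP with LPS share no library, so the microparticle effect was measured separately on each background. Of the 21 members that rose in LPS+MP against LPS, 11 also rose in MP against control, 52.4% of the 21 and 44% of the 25. Among all genes those shares were 48.4% and 30.7%. The 11 were Mrpl15, Mrpl23, Mrpl24, Mrpl38, Mrpl39, Mrpl55, Mrps10, Mrps18a, Mrps18b, Mrps22 and Mrps31. Both Mrpl18 and Mrpl34 fell in each, and 0 members passed in opposite directions. Across the 75 members the 2 sets of log2 fold changes had a Pearson r of 0.607, and across all genes tested of 0.464, a description over genes that share libraries and depth.

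**Figure D5:**
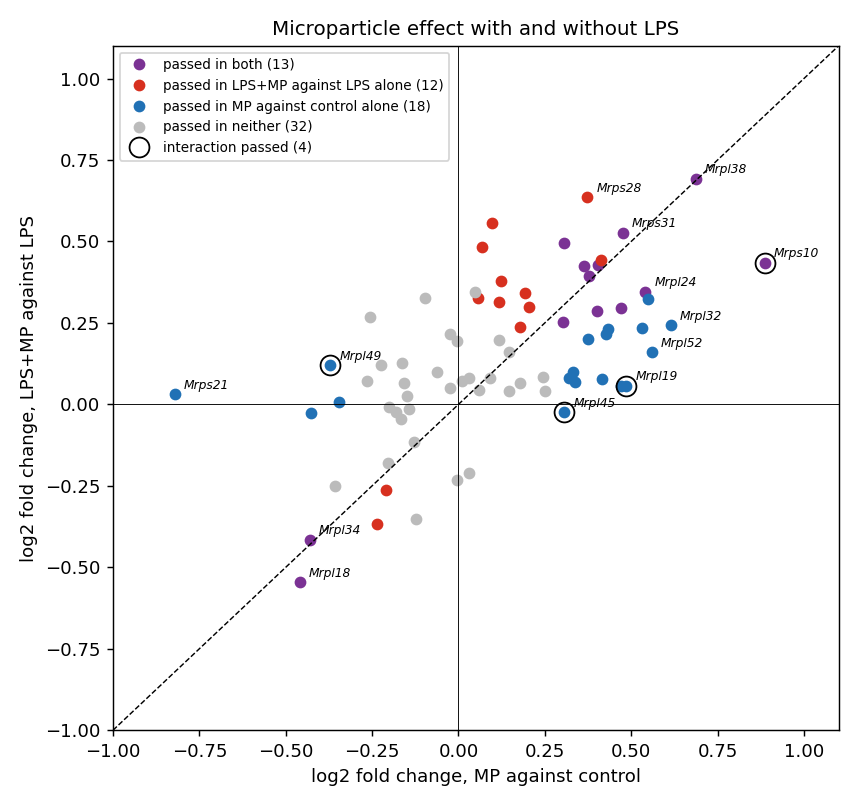
Log2 fold change of each member in LPS+MP against LPS (y axis) and in MP against control (x axis); the dashed line marks equal values and rings mark members whose interaction passed. Mrps10, Mrpl19 and Mrpl45 lie below the line, Mrpl49 above it, and Mrpl38 on it at 0.69 in each.

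For 4 members the microparticle effect itself differed between the backgrounds in the test of the interaction, 1 upward (6.45% of all genes) and 3 downward (15.5% of all genes). Mrpl19 (chr6:81957851-81965958) was at 55.3, 57.4 and 61.7 CPM in the LPS+MP libraries, 55.03, 54.5 and 57.9 in the LPS libraries, 95.2, 98.3 and 98.7 in the MP libraries and 72.6, 64.7 and 70.6 in the control libraries. MP libraries stood above all others, control next, and both groups with LPS lowest and overlapping. Its change was 0.06 ± 0.07 in LPS+MP against LPS and 0.49 ± 0.07 in MP against control, an interaction of -0.43 ± 0.10 (adjusted p = 0.00685). For Mrps10 the changes were 0.43 ± 0.07 and 0.89 ± 0.07 (interaction -0.45 ± 0.10, adjusted p = 0.00564), and for Mrpl45 -0.02 ± 0.07 and 0.31 ± 0.07 (interaction -0.33 ± 0.10, adjusted p = 0.0230).

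Mrpl49, a mitochondria-specific large-subunit protein (chr19:6053630-6057751), went the other way, with 0.12 ± 0.11 in LPS+MP against LPS and -0.37 ± 0.11 in MP against control. It stood at 25.3, 25.2 and 24.6 CPM in the LPS+MP libraries, 24.2, 19.7 and 25.4 in the LPS libraries, 27.5, 34.6 and 35.7 in the MP libraries and 45.5, 39.3 and 42.1 in the control libraries. The LPS+MP and LPS libraries overlapped, MP lay above them and control highest, with MP replicate 1 the lowest of its group. The interaction of 0.49 ± 0.16 (adjusted p = 0.0399) did not pass without control replicate 1 (adjusted p = 0.102) or MP replicate 1 (0.102), nor without control replicate 3, MP replicate 2 or any 1 LPS+MP library (0.0511 to 0.0805). That of Mrpl45 did not pass without MP replicate 1 (0.0581), without LPS+MP replicate 3 (0.0602) or with median-ratio scaling (0.0673). Syvn1, an endoplasmic reticulum ubiquitin ligase gene, overlaps Mrpl49 on the opposite strand.

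With lipopolysaccharide added to microparticles, more members fell than rose. In LPS+MP against MP, 29 members fell (36.6% of all genes fell) and 2 rose (19% of all genes rose), with a median of -0.20 over the members and -0.14 over all genes tested. With quantile normalization or median-ratio scaling 17 fell and 6 rose, and the members' median was -0.04 and -0.06. Mrpl18 (-1.02 ± 0.10), Mrpl42 (-0.89 ± 0.10), Mrpl4 (-0.75 ± 0.19), Mrpl19 (-0.74 ± 0.07) and Mrps34 (-0.70 ± 0.11) had the largest falls, and Mrpl45 (0.65 ± 0.07) and Mrpl52 (0.62 ± 0.15) were the members that rose. This comparison shares no library with LPS against control. Of its 29 falls 21 also fell there (72.4% of 29 and 63.6% of 33, against 70.6% and 72.6% for all genes), and both rises did. The Pearson r over the 75 members was 0.727, below the 0.874 over all genes tested.

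By place in the ribosome, the small and large subunits gave similar medians: 0.12 and 0.10 in MP against control, -0.25 and -0.24 in LPS against control, and 0.12 and 0.12 in LPS+MP against LPS, with no sign changed by either scaling. Small-subunit members that rose with MP were 6 of 26 (10 without LPS replicate 2), and those of the large subunit 19 of 48 (20.6% of all genes). With LPS 13 of 26 and 20 of 48 fell (35.6% of all genes). Members with a bacterial homologue and mitochondria-specific ones were also alike, with 20 of 46 and 13 of 28 falling with LPS. No difference between these groups was tested.

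The proteins around the exit of the peptide tunnel form a list made with earlier results of these data known, so its counts are a description. All 6 genes of this group rose in MP against control, with a median of 0.41 (0.31 to 0.54): Mrpl17 (0.43 ± 0.10), Mrpl22 (0.38 ± 0.13), Mrpl23 (0.40 ± 0.09), Mrpl24 (0.54 ± 0.07), Mrpl45 (0.31 ± 0.07) and Mrpl47 (0.43 ± 0.15). Mrpl24 was at 67.3, 71.4 and 65.5 CPM in the LPS+MP libraries, 53.9, 54.4 and 51.6 in the LPS libraries, 67.04, 66.5 and 62.9 in the MP libraries and 45.6, 44.5 and 43.97 in the control libraries. Both groups with microparticles lay above LPS, and LPS above control, without overlap. With 1 library of either group left out, 4 or 5 of the 6 rose, and under every alternative tried at least 4 did. Of all genes 20.6% rose. With LPS 2 of the 6 rose and Mrpl23 fell (-0.40 ± 0.09).

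For the stalk, where elongation factors dock, the list was also made with earlier results known. Mrpl12 (-0.63 ± 0.12), Mrpl10 (-0.37 ± 0.10) and Mrpl11 (-0.31 ± 0.10) all fell in LPS against control, as did 35.6% of all genes. Under the alternatives tried, 2 or 3 of the 3 fell. Mrpl12 was at 24.5, 24.4 and 23.2 CPM in the LPS+MP libraries, 23.98, 18.9 and 26.3 in the LPS libraries, 26.5, 29.6 and 33.6 in the MP libraries and 38.05, 35.1 and 34.9 in the control libraries. Both groups with LPS lay below every MP and control library. In MP against control 0 of the 3 passed, but 2 fell with quantile normalization, with median-ratio scaling and without LPS replicate 2. Of the 7 measured genes of the central protuberance, 2 rose and 1 fell with MP (20.6% and 18.3% of all genes). Their changes were split, from 0.69 for Mrpl38 to -0.46 for Mrpl18.

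Mrps18a, Mrps18b and Mrps18c are paralogs of 1 bacterial protein, S18, and their products sit at different places. Mrps18b had 69.2 ± 2.68 CPM in LPS+MP, 52.4 ± 1.60 in LPS, 88.5 ± 3.61 in MP and 67.97 ± 2.59 in control, rising with MP (0.38 ± 0.07) and falling with LPS (-0.37 ± 0.07). Mrps18a had 57.2 ± 1.82 CPM in LPS+MP, 40.5 ± 4.95 in LPS, 53.4 ± 4.50 in MP and 42.9 ± 2.48 in control, and rose with MP (0.31 ± 0.10), while its change with LPS did not pass (-0.09 ± 0.10, adjusted p = 0.448). Mrps18c passed in neither (0.10 ± 0.19 and -0.23 ± 0.19). All of them rose in LPS+MP against LPS, by 0.49 ± 0.10, 0.40 ± 0.07 and 0.56 ± 0.19 for a, b and c.

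Several members are human disease genes, mutated in combined oxidative phosphorylation deficiencies. Mrps22 rose with MP (0.47 ± 0.10) and in LPS+MP against LPS (0.29 ± 0.10), and Mrps2 rose with MP (0.34 ± 0.08). Mrps16 fell with LPS (-0.27 ± 0.11, adjusted p = 0.0495) and rose in LPS+MP against LPS (0.31 ± 0.11). Mrpl3 fell in LPS+MP against control (-0.45 ± 0.11), and Mrpl44 passed in no comparison (0.06 with MP and -0.16 with LPS). Mrps12, homologue of the S12 protein of the decoding site, fell with LPS (-0.58 ± 0.17). Mrps30 rose with MP (0.47 ± 0.14). Mrpl41 and Mrps36 were among the 12 that passed nowhere, at 0.02 and -0.17 in LPS+MP against control.

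Proteins of the cytosolic ribosome are the closest family to compare. Of all genes, 35.6% fell and 26.6% rose with LPS, and 20.6% rose and 18.3% fell with MP. In LPS+MP, 13% of all genes rose and 22.2% fell against LPS, 36.6% fell against MP and 38.6% fell against control. With LPS 68 of 76 cytosolic ribosomal protein genes fell and 1 rose (median -0.51), against 33 and 5 of the 75 mitochondrial ones (median -0.24). In LPS+MP against LPS 37 rose and 0 fell (median 0.29), or 23 and 0 with quantile normalization. In MP against control 7 rose and 2 fell, with a median of 0.04 that was not above 0 with median-ratio scaling. Without LPS replicate 2 those counts were 68 and 1 for LPS, 37 and 0 for LPS+MP against LPS, and 15 and 9 for MP. The 13 transcripts encoded by mitochondrial DNA, the templates of this ribosome, took another course. With MP 4 rose and 0 fell (median 0.39), or 10 and 0 without LPS replicate 2 and 2 and 0 with quantile normalization. All 13 fell in LPS+MP against MP (median -0.88), and 10 did in LPS+MP against control (median -0.51), or 6 with quantile normalization. In LPS against control 4 fell and 1 rose. LPS replicate 2 had the highest sum of these transcripts among the LPS libraries, 70317 CPM against 53371 and 51919, and without it 8 fell and 1 rose.

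Of 7 mitoribosomal proteins listed under other names, 2 rose with MP, Ict1 (0.51 ± 0.13) and Aurkaip1 (0.41 ± 0.09), and 1 fell with LPS, Gadd45gip1 (-0.39 ± 0.15), a call lost with either quantile normalization or median-ratio scaling. Dap3, Ptcd3 and Chchd1 passed in neither. Among 13 mitochondrial translation factors 7 fell and 2 rose with LPS (35.6% and 26.6% of all genes). The elongation factor genes Tufm (-0.31 ± 0.07) and Tsfm (-0.47 ± 0.12), Oxa1l, the inner membrane insertase (-0.69 ± 0.08), and Guf1 (-1.06 ± 0.10), which encodes a ribosome-bound GTPase, were among those that fell. Guf1 was at 9.85 ± 0.969 CPM in LPS+MP, 14.02 ± 0.587 in LPS, 26.2 ± 1.41 in MP and 30.4 ± 1.76 in control, and changed by -1.54 in LPS+MP against control. Gfm2, a ribosome recycling factor, rose with MP (0.61 ± 0.07) and with LPS (0.20 ± 0.07). With MP 2 of the 13 rose and 0 fell (20.6% and 18.3% of all genes). Those counts were 4 and 0 without LPS replicate 2 and 1 and 0 with median-ratio scaling.

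Of 25 measured genes of mitoribosome assembly and rRNA modification, 10 fell and 1 rose with LPS (35.6% and 26.6% of all genes). With MP, 3 of them rose and 1 fell (20.6% and 18.3% of all genes). With quantile normalization 11 fell and 5 rose with LPS, with median-ratio scaling 9 fell and 5 rose, and without LPS replicate 2 there were 9 rises and 3 falls with MP. C1qbp, a matrix protein, stood at 112 ± 2.75 CPM in LPS+MP, 99.9 ± 4.43 in LPS, 193 ± 12.1 in MP and 155 ± 4.40 in control, a change of -0.62 ± 0.07 with LPS. The helicase gene Ddx28 rose with MP (0.64 ± 0.09) and fell with LPS (-0.42 ± 0.09). Among 10 genes of mitochondrial transcription and RNA stability, 4 fell with LPS (6 in the absence of LPS replicate 2), including the polymerase gene Polrmt (-0.52 ± 0.16) and Lrpprc (-0.38 ± 0.09), an RNA-stabilising factor. Tfam, which packages mitochondrial DNA, passed in LPS+MP against control (-0.62 ± 0.16) and not in LPS against control (-0.15 ± 0.16). Pnpt1, a mitochondrial RNA-degrading enzyme, rose in both (0.84 ± 0.09 and 0.75 ± 0.09). Of 8 regulators of mitochondrial biogenesis 5 fell and 0 rose with LPS. Those 5 encode factors whose motifs were searched, Nrf1 (-1.08 ± 0.11), Gabpa (-0.59 ± 0.11), Gabpb1 (-0.35 ± 0.09), Yy1 (-0.30 ± 0.07) and Myc (-0.58 ± 0.16). Myc also fell with MP (-1.26 ± 0.16), at 12.2 ± 2.17 CPM in MP and 30.3 ± 1.42 in control, while Ppargc1b (0.44 ± 0.11) and Pprc1 (0.24 ± 0.08), coactivator genes, rose.

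Many members lie head to head with another gene. A protein-coding start on the opposite strand lay within 1000 bp of the start of 32 of 74 members found in GENCODE M21 (43.2%), against 17.4% of 11289 protein-coding genes of the table. Of these partners 30 were in the expression table. The Pearson r of their changes with those of the members over the 30 pairs was -0.067 in MP against control and 0.145 in LPS against control, a description over genes that counts the pair Mrps11 and Mrpl46 from both sides. Mrps18b and Ppp1r10, with starts 45 bp apart, moved in opposite directions with MP, at 0.38 and -1.02. Mrpl51 and its partner Ncapd2, a condensin gene, both fell but differed in size, at -0.58 and -4.38 in LPS+MP against control. In all, 21 members overlap a protein-coding gene of the table, 18 of them on the opposite strand only.

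Members varied in how far they followed the family. The correlation of a member with the mean of the standardized members over the 12 libraries ran from 0.964 for Mrps5 down to -0.654 for Mrpl45, with Mrpl52 at -0.342. Outside the family, the genes whose values over the 12 libraries were most like that mean were Fbl, a nucleolar methyltransferase gene (Pearson r 0.969), the cytosolic ribosomal protein genes Rpl22 (0.963) and Rpl13a (0.960), Phykpl (0.957) and 1700003F12Rik (0.953). Fbl had means of 104 CPM in LPS+MP, 87.7 in LPS, 134 in MP and 119 in control.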

How the data were processed

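Polyadenylated RNA from 12 J774A.1 libraries was sequenced with a directional kit after 16 PCR cycles, per the labels' protocols. The authors deposited 1 table of 11762 genes. Its columns are headed RPKM, but every column sums to 998867 to 999273 and the deposited values were therefore read as CPM, scaled by the authors to a common total and not divided by gene length. Some entries are above 0 by a vanishing amount, so they are not plain scaled reads. The tools TopHat2 2.1.1, Trimmomatic 0.36, FastQC 11.5, edgeR, HTSeq and DESeq2 are named in the submitters' processing notes, with no role. The annotation and the strand setting were not given in the sources used here. The table's coordinates, with no build stated, were identical at both ends to GENCODE M21 (GRCm38) for 37.8% of genes, and promoters were taken from RefSeq GRCm38.p6.

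The deposited CPM values were transformed to log2 with a pseudocount of 1. Genes with at least 1 CPM in at least 3 libraries were kept (11745, 17 removed), and limma 3.58.1 in R 4.3.3 was fitted over all 4 groups with a variance trend and Benjamini-Hochberg adjustment, after being tested on simulated data. An RPKM test had been planned, and the CPM test is of the same kind. Whole reads could not be recovered, so no count test was run and read depth is unknown. The p-values rest on 1 spread per gene, pooled over the replicates of all 4 groups and moderated across genes. Comparisons without the LPS group thus also carry its spread. The members' median SD within a group (log2) was 0.066 in LPS+MP, 0.182 in LPS, 0.122 in MP and 0.077 in control. Replicate numbers were not used as pairs in the main fit. Members and gene lists were chosen with earlier results of these data known. Named members were up to 8 per direction with the largest change among those that passed and whose groups did not overlap; others were named for their role. Alternatives were a pseudocount of 0.1, other filters, quantile and median-ratio scaling, array weights, no trend, the compared groups alone, a replicate block and each library left out.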

Additional observations from a re-analysis of the deposited data

Results flagged for a closer look

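In 4 members the effect of microparticles differed between cells with and without lipopolysaccharide, by a test of the difference itself (limma, adjusted over 11745 genes). Of the 75 members 1 passed upward (1.33%) and 3 downward (4%), below the 6.45% and 15.5% of all genes. The effect was smaller with lipopolysaccharide for Mrps10, by -0.4515 (adjusted p = 0.00564), for Mrpl19, by -0.4291 (adjusted p = 0.00685), and for Mrpl45, by -0.3307 (adjusted p = 0.0230). For Mrpl49 the difference was 0.4918 (adjusted p = 0.0399): its change was 0.12 in LPS+MP against LPS and -0.37 in MP against control. This call did not pass in 7 of 12 fits that left out 1 library (adjusted p up to 0.102), nor with no variance trend (0.0518). That of Mrpl45 did not pass in 2 of 12, without MP replicate 1 (0.0581) and without LPS+MP replicate 3 (0.0602), nor with median-ratio scaling (0.0673).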

How the results depend on the processing

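Of 1135 values of named members under alternatives, 1078 stayed on their side of the threshold, 48 no longer passed, 9 newly passed and 0 changed sign. In the pairwise comparisons, named members were picked among those that passed with groups that did not overlap. Leaving out a library, filtering or a smaller pseudocount therefore could not change their sign. Each of the other filters kept all 71 named values on their side. The causes of the changes below were not tested, and the shares of all genes under these settings are not given here. With quantile normalization the members' median was -0.1449 in LPS against control, 0.02 in LPS+MP against control, -0.0358 in LPS+MP against MP and 0.118 in the interaction. With median-ratio scaling the first 3 were -0.1586, -0.0092 and -0.0576. Under both scalings 2 members were past 2-fold in LPS against control, and in LPS+MP against MP 6 rose, 17 fell and 0 were past 2-fold. In the interaction 5 rose with quantile normalization, 3 with median-ratio scaling and 0 with no variance trend. A pseudocount of 0.1 put 2 members past 2-fold in LPS against control. Array weights gave 38 rises and 14 falls in MP against control, 8 rises, 3 past 2-fold and a median of -0.1602 in LPS against control, 8 falls in LPS+MP against LPS, 5 rises, 44 falls and 2 past 2-fold in LPS+MP against MP, and 4 rises, 15 falls and a median of -0.0603 in the interaction. Those weights were uneven, at 7.523 for MP replicate 2, 0.521 and 0.716 for MP replicates 1 and 3, and 0.086 for LPS replicate 2. The counts with MP under array weights thus rest largely on MP replicate 2. With the compared groups alone 10 fell in MP against control, and 8 rose and 2 fell in LPS+MP against LPS. Without LPS replicate 2, outside that comparison and chosen after seeing the data, 11 fell in MP against control.

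With 1 library left out, 2 to 7 members fell and 0 to 1 were past 2-fold in MP against control, and 1 to 3 were past 2-fold in LPS against control. In LPS+MP against LPS the rises ranged from 10 to 22, and in LPS+MP against MP 0 to 1 were past 2-fold. In the interaction 0 to 3 rose, 2 to 6 fell and 0 to 1 were past 2-fold. Replicate numbers did not pair libraries: over 18 pairs of same-numbered libraries the median correlation of deviations was 0.018 (-0.247 to 0.158). The replicate block gave 24 rises in MP against control and ended the call of Mrps27 in LPS+MP against LPS (adjusted p = 0.0693). Read depth is unknown, so differences between low values cannot be set against counting error.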
